A study of Danio rerio with 8 samples.

Results

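The nuclear genes for oxidative phosphorylation were compared between *seph* mutant and wild type zebrafish larvae, complex by complex. They were taken as all genes in the count table whose symbol begins as those of the subunits of complexes I to V do: nduf followed by a, b, c, s or v and a digit, sdh followed by a, b, c or d, uqcr, cox4 to cox8, or atp5. This gave 86 of the 32434 genes in the table, with 34 in complex I, 9 in complex II, 7 in complex III, 17 in complex IV and 19 in complex V. All 86 passed the filter on low counts. *ndufa4b* and *ndufa4l2b* were placed in complex IV, where the mammalian NDUFA4 protein belongs in spite of its name.

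RNA with poly(A) tails was sequenced in 8 libraries of whole larvae aged 5 days post fertilization, 4 from *seph* mutants and 4 from wild type. *seph*, now named *selenoh*, encodes the selenium-containing nuclear protein selenoprotein H, and the series title names redox homeostasis and cooperation with p53. The labels give the genotypes as SepH mutant and WT, and name no strain, allele or further treatment. They do not say how many larvae were pooled, nor whether the libraries stem from separate clutches. A p-value therefore reflects the spread between these 8 libraries, which may be technical.

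Oxidative phosphorylation takes electrons from NADH (complex I) and succinate (complex II) through ubiquinone, complex III and cytochrome c to oxygen at complex IV. Complexes I, III and IV pump protons across the inner mitochondrial membrane, and complex V, the ATP synthase, makes ATP as the protons return. All subunits of complex II and most subunits of the other complexes are encoded in the nucleus, and a small set is encoded in mitochondrial DNA. Some complex IV and ATP synthase subunits have isoform genes, which in mammals differ by tissue or respond to oxygen.

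The libraries held 51246749 to 56409917 counts. *selenoh* (ENSDARG00000093022) had 854, 855, 1225 and 737 counts in wild type replicates 1 to 4 and 1, 20, 0 and 0 counts in mutant replicates 1 to 4. The mutant mean was thus 0.543% of the wild type mean (two-sided exact permutation test, p = 0.0286, the smallest that 70 arrangements allow). The replicate 3 libraries stood apart from the others of their genotype, and wild type replicate 3 did so in most of the 86 genes, so the counts and the named genes are given with and without that library. The 13 mitochondrially encoded genes are listed with 0 counts in total and could not be compared. Levels are given in CPM (counts relative to library size), scaled with TMM factors and not by transcript length, so they are compared between libraries and not between genes.

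With all 8 libraries, 1 of the 86 genes fell in the mutant and 0 rose, where a gene is called changed at an adjusted p under 0.05 (edgeR quasi-likelihood test, Benjamini-Hochberg over 27050 genes). Over all genes tested, 17.1% were called, 8.65% as higher and 8.45% as lower. The gene that fell was *cox4i2*. At an unadjusted p under 0.05 there were 4 of the 86 genes (4.65%, against 31.9% of all genes), of which 2 were higher. There were 27 without wild type replicate 3 (31.4%, against 38.3%). The DESeq2 Wald test also called 1 lower and 0 higher, against 12.3% and 11.5% of all genes. In contrast, limma-voom with sample quality weights called 1 lower and 20 higher, against 17.6% and 18.6% of all genes.

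The differences of the remaining genes were small. The median log2 fold change of mutant against wild type was 0.09 over the 86 genes and 0.01 over all genes tested, and single genes ran from -1.08 (*cox4i2*) to 0.46 (*ndufa4b*). The 95% interval of the fold change lay within a 2-fold change in both directions for 78 of the 86 genes (90.7%, against 67.9% of all genes), and within a 1.5-fold change for 63 (73.3%, against 35.7%). These shares also depend on the SE, whose median was 0.132 over the 86 genes and 0.179 over all genes tested. The fit behind them was of genotype alone and did not use the replicate numbers as pairs. The fold change was above 0 for 73 of the 86 genes, or 84.9% against 50.8% of all genes, and it was above 0 for 73 to 78 of them under each of the 4 scalings tried. Without wild type replicate 1, however, the fold change was above 0 for 44 of the 86 genes, with a median of 0.01.

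**Figure D1:**
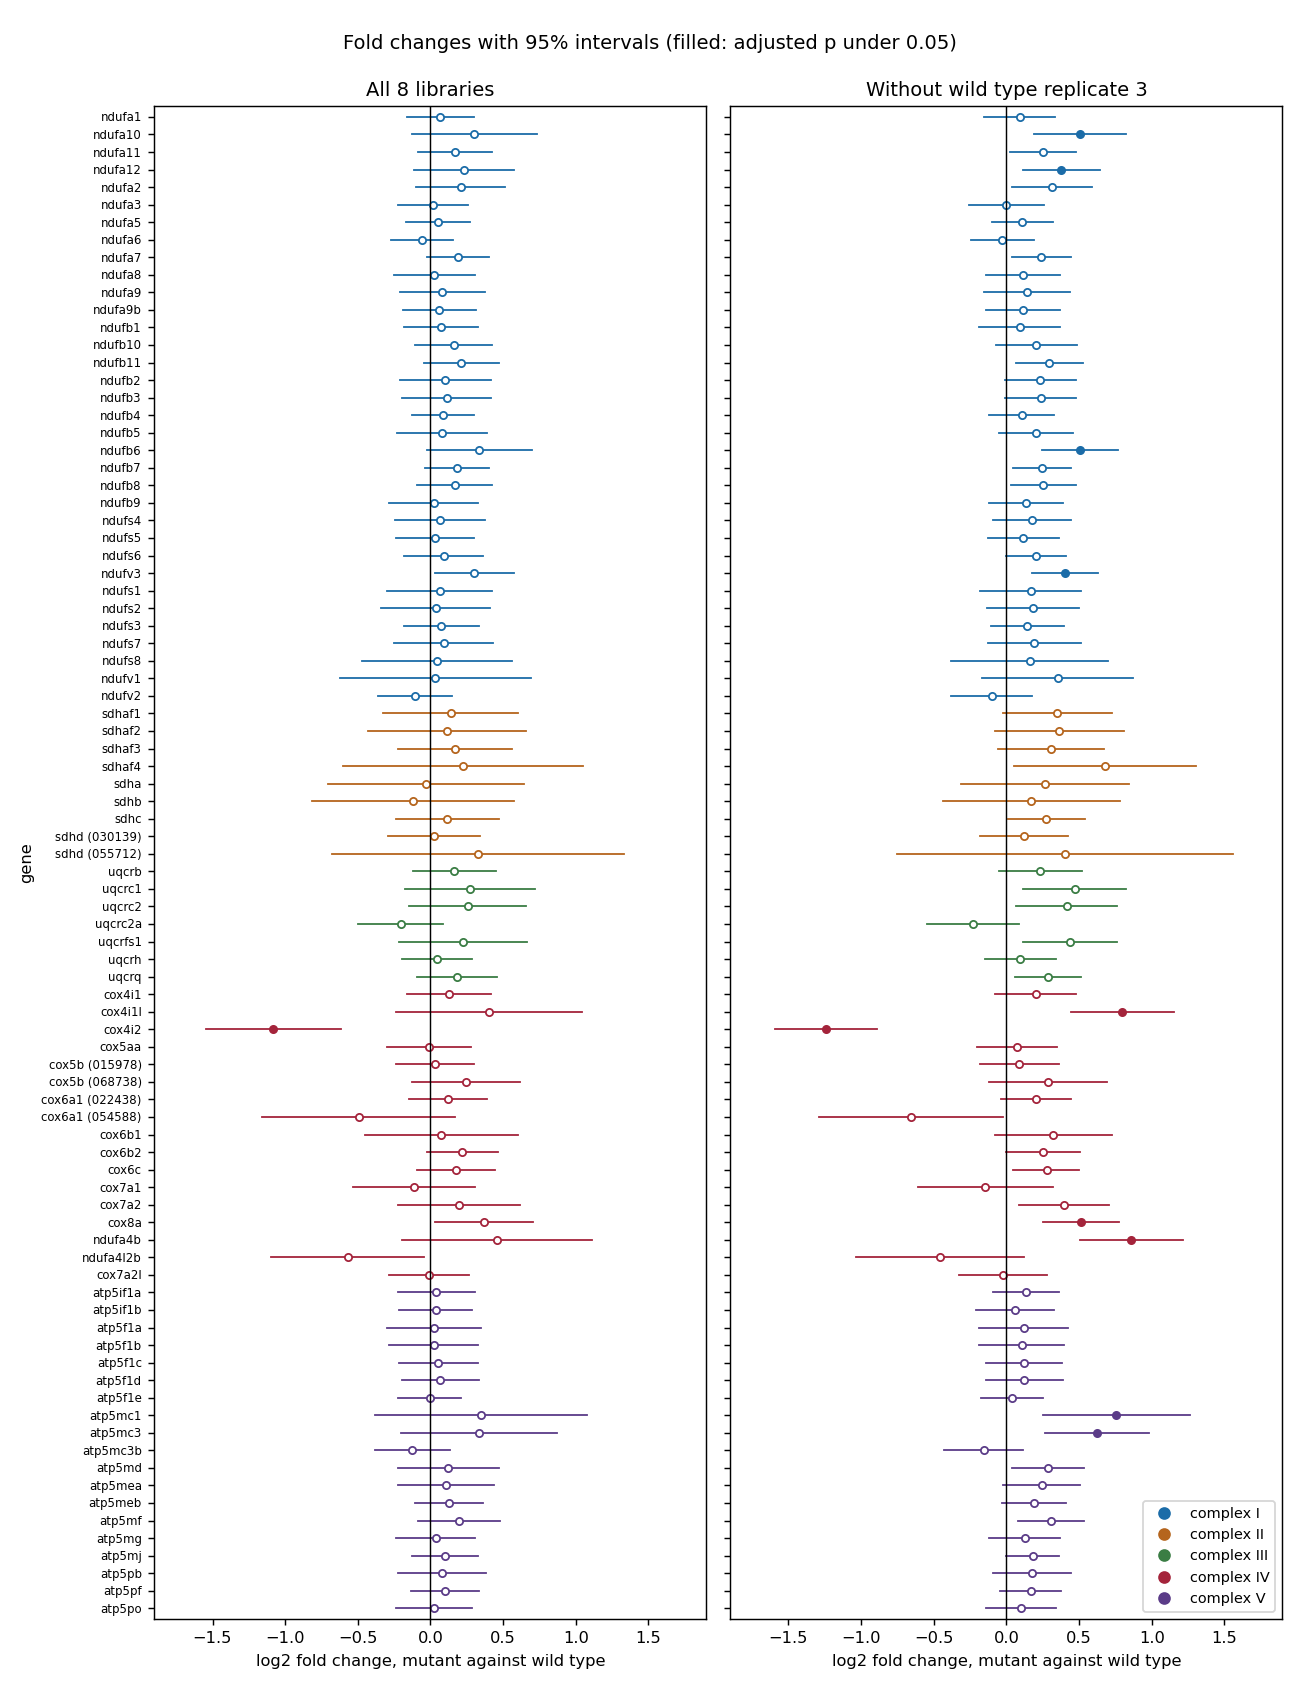
Log2 fold change of mutant against wild type (x axis) for each of the 86 genes (y axis, grouped and coloured by complex), with 95% intervals and filled points for genes with an adjusted p under 0.05, using all 8 libraries (left) or leaving out wild type replicate 3 (right). *cox4i2* at -1.08 is the only filled point on the left, and 10 points are filled on the right.

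Without wild type replicate 3, 9 of the 86 genes rose and 1 fell (edgeR quasi-likelihood test, Benjamini-Hochberg adjustment). Over all genes 13.4% were then called higher and 12.3% lower, so the 10.5% of the 86 genes that rose was near the share of all genes. Of the genes that rose, 4 belonged to complex I (*ndufb6*, *ndufv3*, *ndufa10* and *ndufa12*), 3 to complex IV (*ndufa4b*, *cox4i1l* and *cox8a*) and 2 to complex V (*atp5mc1* and *atp5mc3*), and *cox4i2* was the gene that fell. The same 10 genes were called when both replicate 3 libraries were left out, a fit that called 15.5% of all genes higher and 14.6% lower. With wild type replicates 1 and 2 summed as 1 library, 2 genes rose without wild type replicate 3, against 6.75% of all genes, and 0 rose with it, against 4.81%. With the replicate number as a block, 3 genes rose (*ndufv3*, *cox8a* and *atp5mc3*) and 2 fell (*cox4i2* and the *cox6a1* gene ENSDARG00000054588), against 14% and 13.4% of all genes. The other genes that rose without wild type replicate 3 were not called with the block (adjusted p from 0.0763 for *ndufb6* to 0.195 for *cox4i1l*).

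The subunits of complex I, which oxidises NADH, differed little between the genotypes. None of its 34 genes was called with all 8 libraries by edgeR or DESeq2, 1 had an unadjusted p under 0.05, and the 95% interval of all 34 lay within a 2-fold change. The median log2 fold change was 0.08, and 0.19 without wild type replicate 3. With all libraries it was 0.05 for the 7 electron-transfer core subunits and 0.09 for the 27 accessory subunits, which surround the core and are needed for its assembly or stability. Limma-voom with quality weights and all 8 libraries called a larger share of the 27 accessory subunits higher than the 18.6% of all genes. These were *ndufa2*, *ndufa10*, *ndufa11*, *ndufa12*, *ndufb6*, *ndufb7*, *ndufb8*, *ndufb11* and *ndufv3*. It called none of the 7 core subunits. Wild type replicates 1, 2, 4 and 3 rose in that order in 21 of the 27 accessory subunits, so these calls are not independent. The difference in share was not tested.

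Among the core subunits, *ndufv1* encodes the flavoprotein that accepts electrons from NADH. Its levels were 147, 185, 285 and 152 CPM in mutant replicates 1 to 4 and 137, 146, 299 and 169 CPM in wild type replicates 1 to 4. Both replicate 3 libraries were highest in their group and the groups overlapped (log2 fold change 0.03 ± 0.29 SE, adjusted p = 0.953, and 0.35 ± 0.23 SE without wild type replicate 3, adjusted p = 0.295). Without both replicate 3 libraries the log2 fold change of *ndufv1* was 0.10 ± 0.12 SE. *ndufs1*, the largest iron-sulfur subunit, stood at 184, 186, 244 and 221 CPM in the mutant and at 161, 172, 242 and 225 CPM in wild type. Its groups overlapped as well, with a log2 fold change of 0.06 ± 0.16 SE (adjusted p = 0.826), and 0.17 ± 0.15 SE without wild type replicate 3 (adjusted p = 0.473).

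The accessory subunit *ndufv3*, part of the NADH-oxidising arm, stood at 33.8, 37.6, 37.1 and 40.8 CPM in the mutant and 26.3, 27.0, 36.6 and 31.3 CPM in wild type. The groups overlapped only through wild type replicate 3, which lay above mutant replicate 1. Its log2 fold change was 0.30 ± 0.12 SE with all libraries (adjusted p = 0.121), 0.41 ± 0.10 without wild type replicate 3 (adjusted p = 0.0194) and 0.31 with the replicate block (adjusted p = 0.0456), and over all settings the adjusted p ran from 0.00363 to 0.623. The membrane-arm accessory subunit *ndufb6* stood at 37.7, 41.8, 40.2 and 40.0 CPM in the mutant and at 24.4, 26.9, 42.1 and 33.1 CPM in wild type. Again wild type replicate 3 alone overlapped the mutant libraries, and here it was the highest of all 8. The log2 fold change of *ndufb6* was 0.34 ± 0.16 SE (adjusted p = 0.184) and 0.51 ± 0.11 without that library (adjusted p = 0.0132, and 0.001 to 0.773 over all settings). *ndufa10* (94.5, 103, 112 and 86.2 CPM in mutant and 58.5, 68.8, 113 and 81.5 CPM in wild type libraries) had the same arrangement, with a log2 fold change of 0.30 ± 0.19 SE with all libraries and 0.51 ± 0.14 without wild type replicate 3 (adjusted p = 0.317 and 0.0281, and 0.0054 to 0.95 over all settings). With the replicate block *ndufb6* and *ndufa10* stood at 0.37 and 0.34, and neither was called (adjusted p = 0.0763 and 0.106). *ndufa7* was the only one of the 86 genes whose 4 mutant libraries all lay above the 4 wild type libraries, at 22.7 to 23.8 CPM against 17.8 to 22.5 CPM. It was not called by edgeR with TMM factors (log2 fold change 0.19 ± 0.09 SE, adjusted p = 0.206, and 0.24 ± 0.09 SE without wild type replicate 3, adjusted p = 0.0811). Without wild type replicate 3, edgeR with library size only called it higher, as it did 17.6% of all genes. Over all genes, 11% lay without overlap higher in the mutant.

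Complex II, succinate dehydrogenase, joins the tricarboxylic acid cycle to the respiratory chain. None of its 9 genes was called by edgeR or had an unadjusted p under 0.05 with all 8 libraries, and none was called without wild type replicate 3, where 2 had an unadjusted p under 0.05 (22.2%, against 38.3% of all genes). The median log2 fold change was 0.12, 0.31 without that library and 0.18 without both replicate 3 libraries. For the 5 subunit genes these medians were 0.03, 0.26 and 0.07, and for the 4 assembly factor genes 0.155, 0.36 and 0.23. The catalytic genes of complex II differed between replicates far more than between genotypes. *sdha*, the flavoprotein that oxidises succinate, stood at 156, 168, 320 and 173 CPM in the mutant and 158, 153, 324 and 199 CPM in wild type. *sdhb*, the iron-sulfur subunit, stood at 75.2, 89.4, 180 and 110 CPM in the mutant and 90.3, 105, 191 and 106 CPM in wild type. In both genes, replicate 3 was the highest library of each genotype, and the other libraries of the 2 genotypes overlapped.

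The log2 fold change of *sdha* was -0.03 ± 0.30 SE (adjusted p = 0.959) and that of *sdhb* -0.12 ± 0.31 SE (adjusted p = 0.826). Without wild type replicate 3, in a fit that keeps mutant replicate 3, they were 0.26 ± 0.25 and 0.17 ± 0.27 (adjusted p = 0.492 and 0.682). Without both replicate 3 libraries they were -0.04 ± 0.12 and -0.14 ± 0.14 SE (adjusted p = 0.836 and 0.503). The membrane anchor *sdhc* stood at 57, 60.0, 73.7 and 60.3 CPM in the mutant and 46.6, 52.6, 76.2 and 56.4 CPM in wild type (log2 fold change 0.12 ± 0.16 SE, adjusted p = 0.664, and 0.27 ± 0.12 SE without wild type replicate 3, adjusted p = 0.12). The other anchor, *sdhd*, has 2 genes in the table. ENSDARG00000030139 averaged 50.1 ± 4.17 CPM in mutant and 49.2 ± 9.50 CPM in wild type libraries (n = 4 each, SD), and ENSDARG00000055712 averaged 0.665 ± 0.344 and 0.53 ± 0.172 CPM. Their log2 fold changes were 0.03 ± 0.14 and 0.33 ± 0.45 SE, and 0.12 ± 0.13 and 0.41 ± 0.51 SE without wild type replicate 3 (adjusted p = 0.549 and 0.603). The 4 genes for assembly factors, *sdhaf1* to *sdhaf4*, had log2 fold changes of 0.11 to 0.23, and of 0.31 to 0.68 without wild type replicate 3, where none was called. Without both replicate 3 libraries they had 0.18 to 0.35. *sdhaf4* was like *sdha* in its replicate 3 libraries, which held 12.5 CPM in the mutant against 5.43 to 6.70 CPM in the other 3, and 11.9 CPM in wild type against 4.81 to 4.84 CPM.

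Complex III passes electrons from ubiquinol to cytochrome c. None of its 7 genes was called by edgeR with TMM factors, either with all 8 libraries or without wild type replicate 3, where 4 had an unadjusted p under 0.05 (57.1%, against 38.3% of all genes). Its median log2 fold change was 0.18, and 0.29 without that library. Among the 7 genes, limma-voom with quality weights called *uqcrc1*, *uqcrc2* and *uqcrfs1* higher, against 18.6% of all genes. Without wild type replicate 3, the DESeq2 Wald test called *uqcrc1*, *uqcrc2*, *uqcrfs1* and *uqcrq* higher, against 15.8% of all genes. Without that library, edgeR with library size only called *uqcrc1*, *uqcrfs1* and *uqcrq* higher, against 17.6% of all genes. In each of these fits the share of the 7 genes was above that of all genes. Wild type replicates 1, 2, 4 and 3 rose in that order in 6 of the 7, so these calls are not independent, and the shares were not tested. The core protein *uqcrc1* stood at 207, 219, 266 and 202 CPM in the mutant and 138, 147, 256 and 199 CPM in wild type. *uqcrfs1*, the Rieske iron-sulfur protein, stood at 156, 154, 193 and 162 CPM in the mutant and 104, 117, 200 and 147 CPM in wild type. In both genes wild type replicates 1 and 2 lay well below the mutant libraries, replicate 4 just below the lowest mutant library, and replicate 3 among or above them. The log2 fold changes were 0.27 ± 0.20 SE for *uqcrc1* (adjusted p = 0.389) and 0.23 ± 0.20 SE for *uqcrfs1* (adjusted p = 0.472), and without wild type replicate 3 they were 0.47 ± 0.16 and 0.44 ± 0.14 (adjusted p = 0.0583 and 0.0535). The 2 genes for the second core protein had fold changes of opposite sign, *uqcrc2* at 0.26 ± 0.18 SE and *uqcrc2a* at -0.21 ± 0.13 SE, and neither was called by edgeR (adjusted p = 0.37 and 0.317). They stood, without wild type replicate 3, at 0.42 ± 0.15 and -0.23 ± 0.14 SE (adjusted p = 0.0788 and 0.269).

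Complex IV, cytochrome c oxidase, reduces oxygen to water, and its isoform genes held the largest differences of the 86 genes. By edgeR with all 8 libraries 1 of its 17 genes fell and 0 rose, 3 had an unadjusted p under 0.05 (17.6%, against 31.9% of all genes), and the median log2 fold change was 0.12 (0.21 without wild type replicate 3). Of these 17 genes, limma-voom with quality weights called *ndufa4b*, *cox4i1l*, *cox6b2*, *cox6c* and *cox8a* higher, against 18.6% of all genes. Wild type replicates 1, 2, 4 and 3 rose in that order in 13 of the 17, so these calls are not independent, and the share was not tested. *cox4i2* encodes the isoform of subunit 4 that in mammals is found in lung and responds to oxygen. It stood at 12.1, 14.5, 11.3 and 18.0 CPM in mutant replicates 1 to 4 and at 34.1, 32.4, 19.4 and 32.6 CPM in wild type replicates 1 to 4. The groups did not overlap, and wild type replicate 3 was closest to the mutant. Over all genes, 11.1% lay without overlap lower in the mutant. The log2 fold change was -1.08 ± 0.21 SE (95% interval -1.55 to -0.62, adjusted p = 0.00793). It was -1.24 without wild type replicate 3 (adjusted p = 0.00119) and -1.07 with the replicate block (adjusted p = 0.00276), and the pairs of replicates 1 to 4 differed by -1.45, -1.13, -0.76 and -0.84 on the log2(CPM + 0.5) scale. Over all settings the log2 fold change ran from -1.25 to -0.89 and the adjusted p from 3.76e-11 to 0.119, and it was not called without wild type replicates 1 and 2 (-0.89, adjusted p = 0.119).

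*cox4i1*, the widely expressed isoform of the same subunit, stood at 219, 271, 250 and 258 CPM in the mutant and 192, 208, 264 and 251 CPM in wild type. The groups overlapped, with a log2 fold change of 0.13 ± 0.13 SE (95% interval -0.16 to 0.42, adjusted p = 0.546), and 0.20 ± 0.12 SE without wild type replicate 3 (adjusted p = 0.272). *cox4i1l*, another gene with a *cox4*-type symbol, stood at 7.05, 6.60, 6.15 and 7.21 CPM in the mutant and 3.14, 3.88, 8.76 and 4.61 CPM in wild type. Wild type replicate 3 was the highest of the 8 libraries and the other wild type libraries the lowest. Its log2 fold change was 0.40 ± 0.29 SE (adjusted p = 0.37) and 0.80 ± 0.16 without that library (adjusted p = 0.00731, and 7.15e-05 to 0.98 over all settings). With the replicate block *cox4i1l* stood at 0.51 and was not called (adjusted p = 0.195).

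*ndufa4b* had the highest log2 fold change of the 86 genes and was not called by edgeR with all libraries. It stood at 98.7, 103, 107 and 95 CPM in the mutant, a narrow range, and at 45.6, 49.4, 127 and 71.6 CPM in wild type. The log2 fold change was 0.46 ± 0.29 SE (adjusted p = 0.319) and 0.86 ± 0.16 without wild type replicate 3 (adjusted p = 0.00561, and 4.72e-06 to 0.971 over all settings). With the replicate block *ndufa4b* stood at 0.58 and was not called (adjusted p = 0.101). *ndufa4l2b* belongs to the same family, whose mammalian member NDUFA4L2 is induced by low oxygen. It was scarce, at 0.741, 0.840, 0.673 and 0.586 CPM in the mutant and 0.833, 0.975, 1.29 and 1.12 CPM in wild type, and the groups overlapped by 1 mutant library (log2 fold change -0.57 ± 0.23 SE, adjusted p = 0.129, and -0.46 ± 0.25 SE without wild type replicate 3, adjusted p = 0.224).

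The small subunit *cox8a* stood at 158, 166, 192 and 178 CPM in the mutant and 106, 123, 173 and 134 CPM in wild type. Only wild type replicate 3 lay among the mutant libraries, and in each of the 4 replicate pairs the mutant was higher, by 0.57, 0.42, 0.15 and 0.41 on the log2(CPM + 0.5) scale. The log2 fold change was 0.37 ± 0.15 SE (adjusted p = 0.125), 0.52 ± 0.12 without wild type replicate 3 (adjusted p = 0.0133) and 0.39 with the replicate block (adjusted p = 0.0206), and the adjusted p ran from 0.000374 to 0.599 over all settings.

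Subunit 6a has 2 genes with the symbol *cox6a1*. ENSDARG00000022438 averaged 204 ± 7.52 CPM in mutant and 188 ± 28.5 CPM in wild type libraries (n = 4 each, SD), with log2 fold changes of 0.12 ± 0.12 SE and, without wild type replicate 3, 0.21 ± 0.11 SE (adjusted p = 0.539 and 0.189). ENSDARG00000054588 stood at 4.95, 5.83, 4.66 and 9.92 CPM in the mutant and 8.20, 8.95, 5.73 and 12.9 CPM in wild type. The groups overlapped, but within each replicate pair the mutant was lower, with log2(CPM + 0.5) differences of -0.68, -0.58, -0.27 and -0.36. The log2 fold change was -0.50 ± 0.30 SE (adjusted p = 0.288) and -0.66 ± 0.28 SE without wild type replicate 3 (adjusted p = 0.119), and with the replicate block the gene was called lower at -0.51 (adjusted p = 0.0189, and 0.0189 to 0.571 over all settings).

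The remaining isoform genes of complex IV were not called by edgeR with TMM factors, whether with all 8 libraries, without wild type replicate 3 or with the replicate block. *cox7a1*, the heart and skeletal muscle isoform of subunit 7a in mammals, stood at 17.8, 14.1, 9.50 and 17.7 CPM in the mutant and 15.9, 17.6, 14.8 and 15.5 CPM in wild type (log2 fold change -0.11 ± 0.19 SE, adjusted p = 0.727). *cox7a2*, the widely expressed isoform in mammals, had a log2 fold change of 0.20 ± 0.19 SE, and *cox7a2l*, which in mammals takes part in joining complexes III and IV into supercomplexes, one of -0.01 ± 0.12 SE. The subunit 6b genes *cox6b1* and *cox6b2* had values of 0.08 ± 0.23 and 0.22 ± 0.11 SE, and *cox5aa* of -0.01 ± 0.13 SE. Their adjusted p ranged from 0.204 for *cox6b2* to 0.973 for *cox5aa*. The log2 fold changes without wild type replicate 3 were -0.15 ± 0.20 for *cox7a1*, 0.39 ± 0.14 for *cox7a2*, -0.02 ± 0.13 for *cox7a2l*, 0.32 ± 0.18 for *cox6b1*, 0.25 ± 0.11 for *cox6b2* and 0.07 ± 0.12 SE for *cox5aa*, with adjusted p from 0.0642 (*cox7a2*) to 0.919 (*cox7a2l*). *cox6b2* was called higher by limma-voom with quality weights, with an adjusted p of 0.0409 to 0.671 over all settings. *cox7a2* was called higher by the DESeq2 Wald test and by edgeR with library size only, both without wild type replicate 3, with 0.0331 to 0.948 over all settings.

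**Figure D2:**
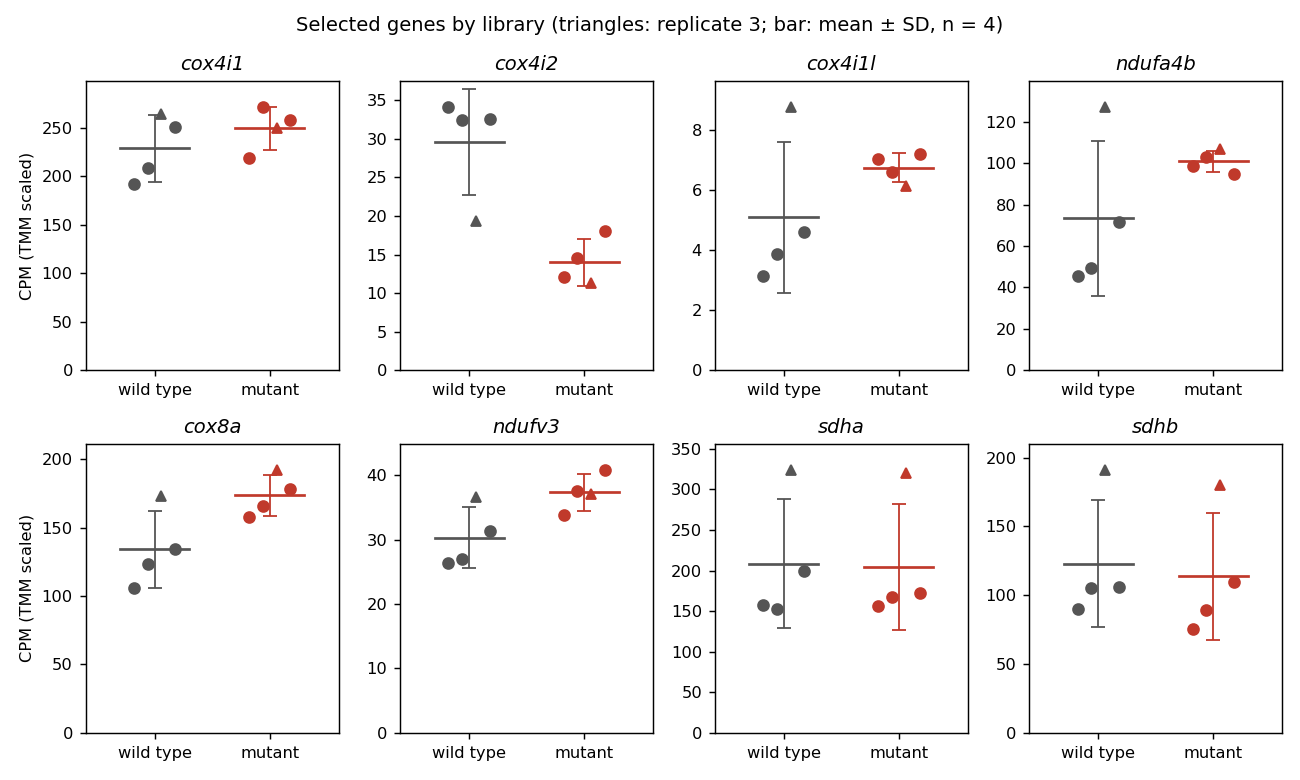
CPM (y axis) in each wild type and mutant library for 8 genes of complexes I, II and IV, with replicate 3 as triangles, a line at the mean and error bars of 1 SD (n = 4). *cox4i2* is lower in every mutant library than in any wild type library, wild type replicate 3 lies apart from the other 3 wild type libraries in *cox4i1l* and *ndufa4b*, and both replicate 3 libraries are highest in *sdha* and *sdhb*.

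Complex V is the ATP synthase. None of its 19 genes was called or had an unadjusted p under 0.05 with all 8 libraries by edgeR, and DESeq2 called none. The median log2 fold change was 0.07, and 0.13 without wild type replicate 3. Of the 19 genes, limma-voom with quality weights called *atp5mc1*, *atp5mc3* and *atp5mf* higher with all 8 libraries, against 18.6% of all genes. Of the catalytic head, *atp5f1b*, the catalytic beta subunit, stood at 1196, 1121, 1489 and 1249 CPM in the mutant and 1072, 1143, 1459 and 1311 CPM in wild type. Its groups overlapped throughout (log2 fold change 0.02 ± 0.14 SE, 95% interval -0.29 to 0.33, adjusted p = 0.937, and adjusted p = 0.596 without wild type replicate 3). *atp5f1a*, the alpha subunit, stood at 931, 919, 1177 and 987 CPM in the mutant and 808, 906, 1180 and 1058 CPM in wild type (log2 fold change 0.02 ± 0.14 SE, adjusted p = 0.936). Leaving out wild type replicate 3 gave log2 fold changes of 0.11 ± 0.13 SE for *atp5f1b* and 0.12 ± 0.13 SE for *atp5f1a*.

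The genes of the proton-carrying c ring differed among themselves. *atp5mc1* stood at 172, 179, 260 and 158 CPM in the mutant and 90.7, 101, 263 and 150 CPM in wild type, and *atp5mc3* at 148, 165, 216 and 157 CPM and at 98.1, 107, 210 and 129 CPM. In both, replicate 3 was the highest library of each genotype, and the other wild type libraries lay below all mutant libraries. Their log2 fold changes were 0.35 ± 0.33 and 0.33 ± 0.24 SE (adjusted p = 0.507 and 0.377). Without wild type replicate 3 they were 0.76 ± 0.22 and 0.62 ± 0.16 (adjusted p = 0.0374 and 0.0214, with ranges of 0.00452 to 0.889 and 0.00165 to 0.978 over all settings), and with the replicate block *atp5mc3* was called at 0.39 (adjusted p = 0.0474). In the block fit *atp5mc1* stood at 0.45 and was not called (adjusted p = 0.106). *atp5mc3b*, whose protein is the same kind of subunit, stood at 461, 512, 457 and 550 CPM in the mutant and 490, 539, 507 and 625 CPM in wild type (log2 fold change -0.13 ± 0.12 SE, adjusted p = 0.5, and -0.16 ± 0.12 SE without wild type replicate 3, adjusted p = 0.382). It was not called in any setting. The difference between the c-ring genes was not tested. The 2 genes for the inhibitor that blocks ATP hydrolysis by the enzyme, *atp5if1a* and *atp5if1b*, had log2 fold changes of 0.04 ± 0.12 and 0.04 ± 0.11 SE (adjusted p = 0.853 and 0.854), and 0.14 ± 0.10 and 0.06 ± 0.12 SE without wild type replicate 3 (adjusted p = 0.358 and 0.749).

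**Figure D3:**
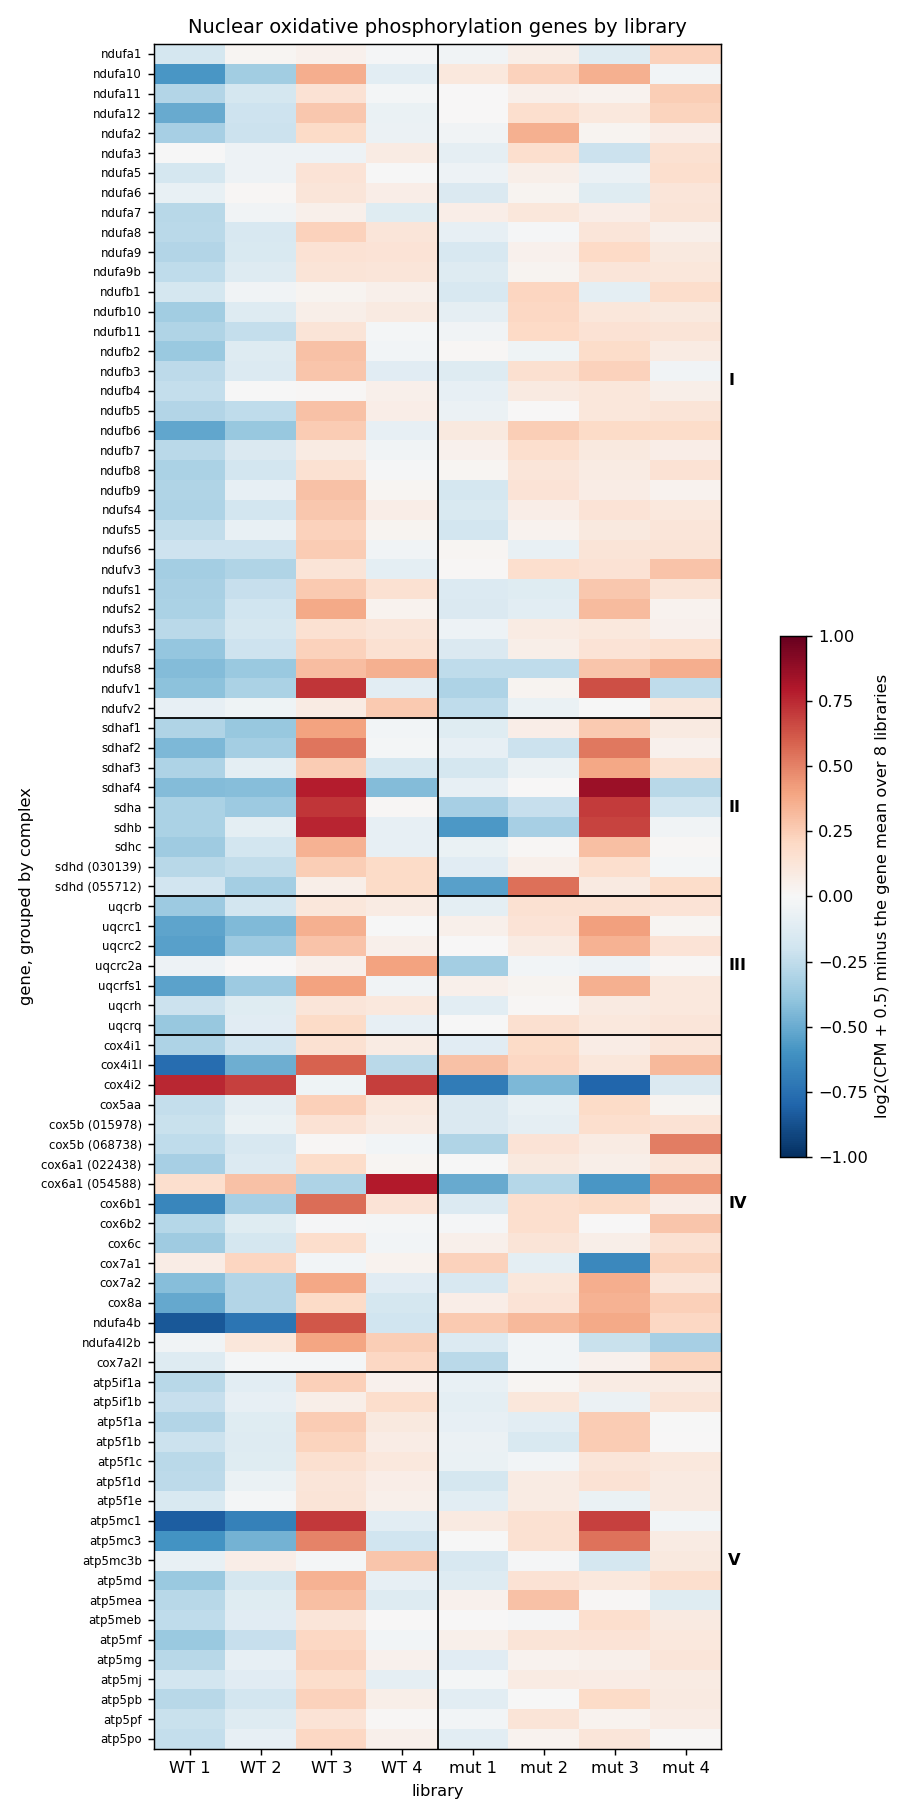
Level of each of the 86 genes (rows, grouped by complex I to V) in each library (columns), as log2(CPM + 0.5) minus the gene's mean over the 8 libraries, with colours limited to a difference of 1 in either direction. Wild type replicates 1 and 2 are lowest across most genes, and wild type replicate 3 is highest among the wild type libraries in 72 genes.

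The 86 genes moved together across the wild type libraries. Wild type replicate 1 was the lowest of all 8 libraries for 71 of them (82.6%, against 14.8% of all genes tested). The wild type libraries took the order replicate 1, 2, 4, 3 from low to high in 65 of the 86 genes (75.6%, against 8.79% of all genes). Wild type replicate 3 exceeded the mean of the other wild type libraries by a median of 0.34 on the log2(CPM + 0.5) scale, and the corresponding median was 0.00 over all genes. For mutant replicate 3 the median over the 86 genes was 0.09. The deviation was largest in complex II, at 0.64 in wild type and 0.42 in the mutant, while complex IV showed 0.29 in wild type and -0.01 in the mutant. *cox4i2*, the *cox6a1* gene ENSDARG00000054588, *cox7a1* and *ndufa3* were lower in replicate 3 in both genotypes, as was *atp5mc3b*.

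Within the replicate pairs, the median log2 difference of mutant and wild type over the 86 genes was 0.19, 0.21, -0.07 and 0.06 for replicates 1 to 4. The difference was largest in replicates 1 and 2, and it had the opposite sign in replicate 3. The spread within groups was unequal, with a median coefficient of variation of 9.12% in the mutant and 16.1% in wild type, against 16% and 17% over all genes. In wild type without replicate 3 it was 11.8%, against 10.8% over all genes.

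**Figure D4:**
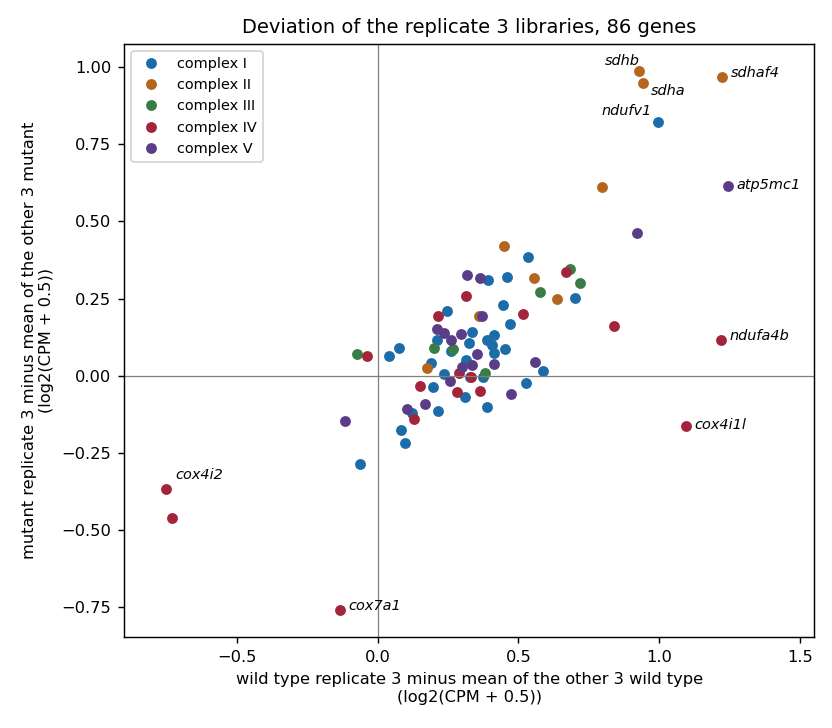
Deviation of mutant replicate 3 from the other 3 mutant libraries (y axis) against that of wild type replicate 3 from the other 3 wild type libraries (x axis), in log2(CPM + 0.5), for the 86 genes coloured by complex. *sdha*, *sdhb*, *sdhaf4* and *ndufv1* lie at 0.82 or more on both axes, *ndufa4b* and *cox4i1l* deviate by over 1 in wild type alone, and *cox4i2* is below 0 on both.

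Summed over the 86 genes, the members took 0.972%, 1.02%, 1.17% and 1.08% of all counts in mutant replicates 1 to 4 and 0.77%, 0.825%, 1.21% and 1.03% in wild type replicates 1 to 4. Wild type replicates 1 and 2 were lowest and wild type replicate 3 highest, and the groups overlapped. The means were 1.06% ± 0.0857 in mutant and 0.96% ± 0.203 in wild type libraries (n = 4 each, SD), and 0.877% ± 0.14 in wild type without replicate 3 (n = 3). Complex V held the most, at 0.512% ± 0.0394 in the mutant and 0.473% ± 0.09 in wild type, and complex II the least, at 0.0479% ± 0.0144 and 0.0464% ± 0.0174. Complex IV stood at 0.172% ± 0.0103 in the mutant and 0.149% ± 0.0297 in wild type, complex I at 0.236% ± 0.0188 and 0.211% ± 0.0468, and complex III at 0.0936% ± 0.00742 and 0.0808% ± 0.0199. These shares are of raw counts. The TMM factors, not used in them, were 0.949, 0.927, 1.02 and 0.996 in wild type replicates 1 to 4 and 1.02 to 1.04 in the mutant. Scaled with TMM factors, the 86 genes summed to 9376, 10002, 11485 and 10457 CPM in mutant replicates 1 to 4. In wild type replicates 1 to 4 they summed to 8120, 8899, 11838 and 10392 CPM, so the groups lay closer than by the shares. Shares and sums were described and not tested. A change in the number of cells of a type and a change in RNA per cell cannot be told apart in RNA of whole larvae.

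**Figure D5:**
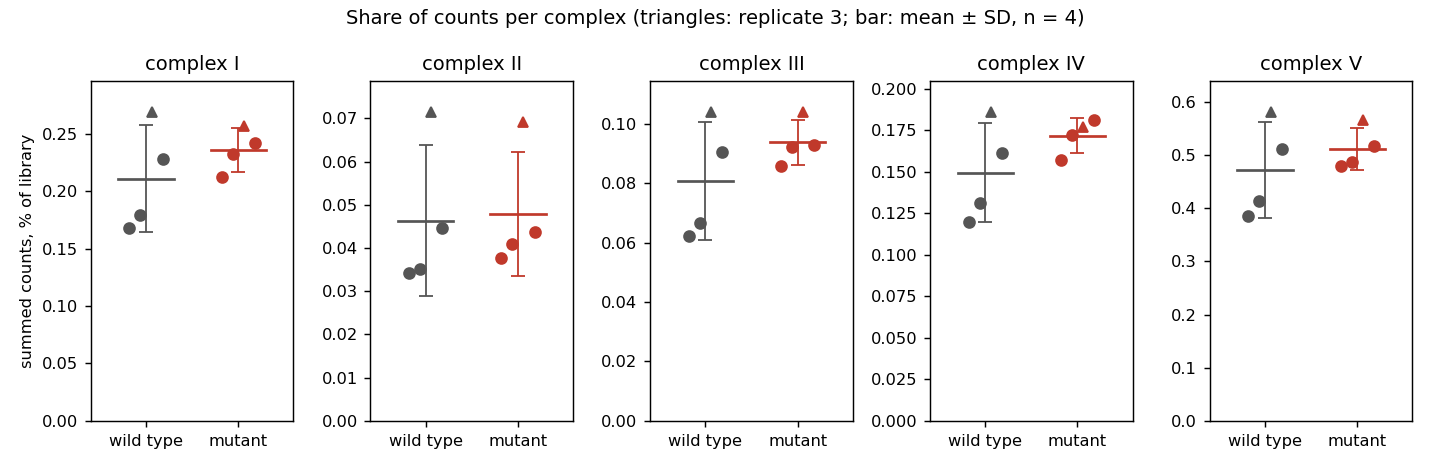
Summed raw counts of each complex, without TMM factors, as a percentage of all counts in the library (y axis, from 0), for the 4 wild type and 4 mutant libraries, with replicate 3 as triangles, a line at the mean and error bars of 1 SD. Wild type replicate 3 is the highest wild type library in all 5 complexes, and the groups overlap in each.

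The other genes of energy metabolism were taken from 11 lists outside the symbol rule, with 208 genes tested, of which 1 rose and 6 fell, or 7 in all, against 17.1% of all genes. When wild type replicate 3 was left out, 31 rose and 11 fell (against 13.4% and 12.3% of all genes), and with the replicate block 23 rose and 10 fell (14% and 13.4%). The next list held electron carriers and other routes into the chain. Its entries included *cyc1* of complex III and *ndufab1* genes of complex I, whose symbols the rule does not match. In this list 1 of 9 genes tested was higher and 0 lower. That gene was *gpd2*, the mitochondrial glycerol-3-phosphate dehydrogenase, which hands electrons to ubiquinone. It stood at 22.7, 20.0, 23.8 and 21.6 CPM in the mutant and 12, 12.3, 14.1 and 16.8 CPM in wild type, with no overlap (log2 fold change 0.67 ± 0.13 SE, 0.68 without wild type replicate 3, adjusted p = 0.00701 with all libraries, and 2.8e-05 to 0.0972 over all settings). The ATP synthase assembly and nucleotide exchange list had 2 of 13 lower and 0 higher. These were *slc25a3* (ENSDARG00000027424), a gene for the mitochondrial phosphate carrier, at 6.10 ± 3.33 CPM in mutant and 29.5 ± 3.71 CPM in wild type libraries, and *ckmt2* (ENSDARG00000069615), a mitochondrial creatine kinase, at 27.5 ± 17.3 and 96.1 ± 26.8 CPM (n = 4 each, SD). Their log2 fold changes were -2.28 ± 0.38 and -1.80 ± 0.42 SE (adjusted p = 0.00462 and 0.0191), and -2.22 and -1.59 without wild type replicate 3. This *ckmt2* gene was not called without mutant replicate 2 (adjusted p = 0.0565) or mutant replicate 4 (0.0541), in a range of 7.13e-05 to 0.094 over all settings. The other *slc25a3* gene (ENSDARG00000025566) and the other *ckmt2* gene (ENSDARG00000039929) were not called with all 8 libraries.

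In the tricarboxylic acid cycle and pyruvate dehydrogenase list 1 of 20 genes was lower and 0 higher. *pdha1b*, a gene for the E1 alpha subunit of pyruvate dehydrogenase, stood at 0.434, 0.983, 1.03 and 1.41 CPM in the mutant and 6.27, 5.58, 4.21 and 5.84 CPM in wild type (log2 fold change -2.50 ± 0.31 SE, adjusted p = 0.00113, and -2.61 without wild type replicate 3). *pdha1a*, the other gene for that subunit in the list, was not called with all 8 libraries. Of the ubiquinone synthesis genes, 1 of 11 was lower, *coq8a* (ENSDARG00000020123), averaging 67.8 ± 8.03 CPM in mutant and 111 ± 28.7 CPM in wild type libraries (log2 fold change -0.72 ± 0.20 SE, adjusted p = 0.0344, and -0.89 without wild type replicate 3). Wild type replicate 3, at 69.1 CPM, fell within the mutant range of 59.6 to 77.5 CPM. The other gene with the symbol *coq8a* (ENSDARG00000032426) was not called with all 8 libraries. In glycolysis 1 of 19 genes was lower, the enolase gene *eno1* (ENSDARG00000013750), with a log2 fold change of -0.51 ± 0.14 SE (adjusted p = 0.0328, and -0.55 without wild type replicate 3). It averaged 32.5 ± 5.33 CPM in mutant and 46.1 ± 5.41 CPM in wild type libraries. The other gene with the symbol *eno1* (ENSDARG00000022456) was not called with all 8 libraries. Without 1 library at a time, the adjusted p of *coq8a* ran from 0.0012 to 0.0992 and was under 0.05 only when mutant replicate 4 or wild type replicate 3 was the library left out. That of *eno1* ran from 0.0236 to 0.0861 and was under 0.05 only when mutant replicate 2, mutant replicate 4 or wild type replicate 3 was the library left out. In the antioxidant and uncoupling list 1 of 12 was lower, *ucp1*, which in mammals uncouples respiration from ATP synthesis in brown fat. It stood at 232, 318, 171 and 411 CPM in the mutant and 1378, 1291, 337 and 1128 CPM in wild type, and wild type replicate 3 fell within the range of the mutant libraries (log2 fold change -1.87 ± 0.43 SE, adjusted p = 0.0172, and -2.16 without wild type replicate 3). *ucp1* was not called without mutant replicate 1 (adjusted p = 0.0574) or wild type replicate 1 (0.0523) or 2 (0.0517), in a range of 5.69e-15 to 0.194 over all settings.

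None of the 11 complex I assembly factors, 20 complex III and IV assembly factors, 62 mitochondrial ribosome genes, 22 import and quality control genes or 9 regulators of mitochondrial gene expression was called with all 8 libraries by edgeR. The most abundant of each list were *ndufaf1* (log2 fold change 0.16 ± 0.11 SE), *uqcc1* (0.18 ± 0.18), *mrps34* (0.05 ± 0.10), *hspa9* (0.20 ± 0.25) and *tfb2m* (-0.13 ± 0.13). Without wild type replicate 3, where 13.4% of all genes were called higher, 12 of the 22 import and quality control genes rose, and the median log2 fold change of the list was 0.53 against 0.31 with all libraries. With the replicate block, where 14% of all genes were called higher, 9 of the 22 rose, as did 2 mitochondrial ribosome genes, 4 glycolysis genes and 1 gene in each of the assembly factor lists of complex I and of complexes III and IV. Without wild type replicate 3, the mitochondrial ribosome had 4 of 62 higher and 1 lower, and the assembly factor lists of complex I and of complexes III and IV had 2 higher each.

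Markers of some other tissues differed between the genotypes, where 8.65% of all genes were called higher and 8.45% lower. All 16 exocrine pancreas genes fell, and their summed level was 110 to 248 CPM in the mutant and 32215, 33408, 13161 and 22397 CPM in wild type replicates 1 to 4. Wild type replicate 3, the library with the lowest pancreatic level of its group, was the one with the highest share of counts for the 86 genes, and replicates 1 and 2 were the reverse. That share was 1.21% in wild type replicate 3, and 0.972% to 1.17% in the mutant libraries, whose pancreatic level was far lower. The part of pancreatic RNA in the share of the 86 genes was not tested. Of the 17 photoreceptor genes 14 fell, and their sum was 187 to 923 CPM in the mutant and 2366 to 3215 CPM in wild type. In skeletal muscle, a tissue with many mitochondria, 2 of 22 genes fell and 0 rose, while the median log2 fold change was 0.22 and 15 of the 22 were above 0. With the replicate block 8 rose and 2 fell (14% and 13.4% of all genes). The muscle genes had sums of 90817 to 101611 CPM in the mutant and 74237 to 92168 CPM in wild type, where replicate 3 was lowest. Of the 12 heart genes, 2 rose (6 with the replicate block, and 1 without wild type replicate 3), with sums of 504 to 620 CPM in the mutant and 448 to 557 CPM in wild type. None of these 4 lists had a gene at 0 in all libraries of a group, and the part of these tissues in the results on *cox4i2*, *slc25a3*, *ckmt2*, *pdha1b* and *ucp1* was not tested. Summed circadian clock genes stood at 1295 to 1514 CPM in the mutant and at 2572, 2515, 1509 and 1893 CPM in wild type replicates 1 to 4, so that wild type replicate 3 lay within the mutant range. The clock genes' part in the replicate 3 pattern was not tested. Of the other marker lists, hepatocyte and ionocyte each had 4 of 14 genes higher and 0 lower with all 8 libraries. Intestine had 4 of 7 lower and 0 higher, and erythroid 3 of 7 lower and 0 higher. Neuron had 1 of 14 higher and 2 lower, macrophage 2 of 9 higher and 2 lower, and p53 targets 6 of 17 higher and 0 lower. The part of these lists in the results was not tested.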

How the data were processed

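Polyadenylated RNA was measured in 4 *seph* mutant and 4 wild type libraries of whole larvae, grouped as labelled. The deposited table holds whole-number counts per Ensembl gene, made by the authors with STAR 2.3.0e and HTSeq 0.6.0, per the submitters' processing notes. Genome build, annotation, strand setting and multiple mapping were not given in the sources used here, so near-identical paralogs and overlapping genes are uncertain. None of the 86 genes has the same 8 counts as another gene. No column of another sample was present.

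Symbols came from a table that named 20769 of the 32434 IDs. Of 439 entries in the 11 metabolic and 12 marker lists, 286 were found by symbol, 41 through synonyms of the RefSeq GRCz12tu gene table and 32 after dropping a final a or b, and 80 were not found. The synonym matches of tomm20a and opn1sw1 led to other genes and were dropped. RefSeq labels *ndufa9b* a pseudogene. The members and all lists were chosen with earlier results of these data known.

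Genes passed filterByExpr (minimum count 10), leaving 27050. TMM factors scaled the counts, and edgeR 4.0.16 (R 4.3.3) fitted a quasi-likelihood model of genotype alone, with Benjamini-Hochberg adjustment over all genes. The fold change and F statistic gave standard errors and 95% intervals. SD and n refer to libraries. The most that a count of 0 allows, 3 counts, is 0.0532 to 0.0585 CPM, which covers counting error only. The steps were tested on simulated data.

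Same-numbered libraries of the 2 genotypes deviated together from their group means, with correlations of 0.202, 0.16, 0.608 and 0.399 across genes for replicates 1 to 4, so the numbers were taken to pair the libraries. For replicates 1 and 2 other pairs were about as close or closer (0.196 for mutant 1 with wild type 2, 0.181 and 0.173 for mutant 2 with wild type 1 and 4). The blocked value is given for each member whose call it changes from that with all 8 libraries, and for the named members called only without wild type replicate 3. It is also given for lists whose counts the text turns on.

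The named genes are *selenoh*, up to 4 called members of each complex by smallest p, or the 2 most abundant where none was called, members with an absolute log2 fold change of at least 1, up to 8 members called only without wild type replicate 3, the isoform genes, *sdha* to *sdhd*, and up to 3 called genes or the most abundant gene of each metabolic list. *ndufa3*, *ndufa7*, *ndufa12*, *sdhaf1* to *sdhaf4*, *uqcrc2* and *uqcrc2a* lie outside this rule and were chosen after their values were seen. *ndufa2*, *ndufa11*, *ndufb7*, *ndufb8*, *ndufb11*, *uqcrq*, *cox6c* and *atp5mf* also lie outside it, and were named because an alternative fit called them higher. Other copies of called genes of the metabolic lists were named beside them. Alternatives were DESeq2 1.42.0 size factors and Wald test, upper-quartile factors, library size only, limma-voom (limma 3.58.1) with quality weights, other filters, an adjusted p under 0.01, a replicate block, a term for replicate 3, synonym matches to the rule, and leaving out libraries. Combinations of leaving out wild type replicate 3 with other scalings or tests, and summing or leaving out wild type replicates 1 and 2, were chosen after seeing the data.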

Additional observations from a re-analysis of the deposited data

Results flagged for a closer look

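In 76 groups of 4 libraries, the gap between the highest or lowest library and its neighbour was compared with the range of the group. The gap passed the 95% critical value of Dixon's test in 3 of the 76 groups. This is no more than the about 5% of groups in which chance passes it. In the mutant, replicate 3 was the highest library for *sdha* at 320 CPM, with a gap of 0.899 of the range. In wild type, replicate 3 was the highest library for *sdhb* at 191 CPM, with a gap of 0.84. In wild type, replicate 3 was also the lowest library for *cox4i2* at 19.4 CPM, with a gap of 0.883. All 3 lie in a replicate 3 library.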

How the results depend on the processing

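With all 8 libraries the counts were 0 genes higher and 1 lower of 86 (8.65% and 8.45% of all genes). The number higher was 9 without wild type replicate 3 (13.4% of all genes), and also with DESeq2 size factors in that fit (12.8%). It was 9 as well without both replicate 3 libraries (15.5%). It was 17 with the DESeq2 Wald test (15.8% of all genes), 23 with library size only (17.6%) and 2 with wild type replicates 1 and 2 summed (6.75%), each without wild type replicate 3. It was 20 with limma-voom quality weights (18.6%) and 2 with a term for the replicate 3 libraries (14.7%). With the replicate block, which uses the pairing, it was 3 (14%), and 2 genes were lower (13.4%). Leaving out 1 library at a time gave 0 to 9 genes higher and 1 lower. Without wild type replicates 1 and 2, 0 genes were lower (1.69% of all genes) and the median log2 fold change of the 86 genes was -0.07, with 26 of 86 above 0. It was 0.03 (54 of 86 above 0) with these replicates summed as 1 library. *cox4i2* kept its sign in every setting, whereas *atp5mc1*, *uqcrc1*, *uqcrfs1* and *cox7a2*, called higher in some settings, were at -0.10, -0.02, -0.06 and -0.04 without wild type replicates 1 and 2. The other settings kept the counts of 0 and 1.

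Library size only moved the median of all genes to 0.08, and to 0.13 without wild type replicate 3, where the median of the 86 genes was 0.29, so that 76 of 86 lay above the median of all genes, as with TMM factors. The 4 genes matching the symbol rule only by a synonym left the counts as they were. With 4 libraries a group, log2 fold changes of the 86 genes had a median SE of 0.13 in the fit of genotype alone. This limits what could be called among small differences, and that fit does not use the pairing. Without wild type replicate 3, the number of genes that rose was 9, and 2 when wild type replicates 1 and 2 were summed. The summed fit has fewer wild type libraries and called 6.75% of all genes higher, against 13.4%. In both fits 76 of the 86 genes lay above 0, with a median log2 fold change of 0.20 and, when summed, 0.15. Whether wild type replicates 1 and 2 are separate samples was not tested.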
